A study of Mus musculus with 6 samples.

Results

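The genes described here encode enzymes of glycolysis and form a set of 10, chosen with earlier results of these data known: Gpi1, Aldoa, Aldoc, Tpi1, Pgk1, Eno1, Eno2, Pkm, Ldha and Ldhb. Members were taken as every probe set whose platform annotation gave one of these symbols and no other. By this rule 8 of the 10 genes were represented, by 11 probe sets, among 8251 genes named on the array, and Gpi1 and Eno1 are not analysed here. Each gene was read from its brightest probe set, meaning the one with the highest mean signal over all arrays.

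Visual cortex was taken from wild-type adult mice (C57Bl6, a standard inbred strain) that had lost one eye. The protocol lists 4 mice, with monocular enucleation on postnatal day 100 and tissue collected after 4 more days. Most optic nerve fibres of the mouse cross the midline, so cortex contralateral to the removed eye (deprived, 3 arrays) was compared with cortex ipsilateral to it (non-deprived, 3 arrays). Both groups thus came from enucleated animals, and no group of animals with both eyes was among the samples. Because 4 mice are listed for every array, arrays of both groups may share animals. The main model treated the 6 arrays as independent. The design text speaks of pooled samples without giving the number of mice per pool, so the spread between arrays, on which the p-values rest, may be technical.

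Glycolysis turns glucose into pyruvate in the cytosol and yields ATP without oxygen. Lactate dehydrogenase then interconverts pyruvate and lactate. In brain, neurons and astrocytes share the pathway but differ in the isozymes they favour: Aldoc (aldolase C, also known as zebrin II) is strongly expressed by astrocytes in the cortex, and Eno2 (neuron-specific enolase) by neurons. Several glycolytic genes, among them Pgk1 and Ldha, are textbook targets of hypoxia-inducible factor 1, which binds the core letters ACGTG or GCGTG.

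Promoter sequence is shown for 4 members, Ldha and Pgk1 as textbook targets of that factor, and Aldoc and Eno2 as the genes with the lowest and the highest difference between groups. Each line gives the 160 bases before the most upstream RefSeq transcription start (build GRCm38.p6), written 5′ to 3′ in the direction of transcription. Capitals mark ACGTG or GCGTG on either strand.

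Ldha, chr7:46845644-46845803, plus strand: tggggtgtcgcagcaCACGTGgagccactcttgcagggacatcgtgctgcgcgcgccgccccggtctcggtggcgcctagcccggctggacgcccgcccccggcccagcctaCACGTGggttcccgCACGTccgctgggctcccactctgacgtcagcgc

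Pgk1, chrX:106186940-106187099, plus strand: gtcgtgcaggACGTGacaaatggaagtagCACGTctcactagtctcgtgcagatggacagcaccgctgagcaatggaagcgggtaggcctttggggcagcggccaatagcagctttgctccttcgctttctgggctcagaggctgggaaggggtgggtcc

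Aldoc, chr11:78322913-78323072, plus strand: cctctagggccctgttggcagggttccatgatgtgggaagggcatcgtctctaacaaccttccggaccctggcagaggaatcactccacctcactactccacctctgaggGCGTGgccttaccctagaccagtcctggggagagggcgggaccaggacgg

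Eno2, chr6:124769674-124769833, minus strand: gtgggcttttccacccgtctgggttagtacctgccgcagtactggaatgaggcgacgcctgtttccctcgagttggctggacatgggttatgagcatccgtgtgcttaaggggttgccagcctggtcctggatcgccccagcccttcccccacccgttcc

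The Ldha stretch held CACGTG, a palindrome that contains ACGTG on both strands, at 145 and at 48 bases before the start, and one more ACGTG on the opposite strand. The Pgk1 stretch held ACGTG at 150 and 131 bases before the start, on opposite strands. Aldoc had a single GCGTG, at 50 bases, and Eno2 had neither motif. Among all 10 listed genes, ACGTG was present in 2 (Ldha and Pgk1) and GCGTG in 2 (Aldoc and Ldhb), while 11.7% and 21.7% of the same stretch in 27025 genes held them. CACGTG, which overlaps ACGTG, was present in 1 of the 10 and in 4.5% of all genes. These are matches of letters and were not tested as binding sites.

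In deprived cortex none of the 8 glycolytic enzymes passed the test. The 8 log2 differences, deprived minus non-deprived, lay between -0.25 (Aldoc) and 0.10 (Eno2), with a median of -0.09, against a median of 0.01 over the 7453 probe sets tested. The mean was lower in deprived arrays for 7 members and higher for 1, Eno2. Adjusted p-values (limma, Benjamini-Hochberg over all probe sets tested) ran from 0.95 to 0.98, and the number past 0.05 was 0 of 8, where 0.174% of all tested probe sets passed (0.161% lower and 0.0134% higher). At an unadjusted limma p under 0.05, 1 member was lower (Aldoc) and 0 were higher, where 2.42% of all tested probe sets were lower by that rule and 2.67% higher. The arrays of the 2 groups did not overlap for 1 member (Pgk1, lower), and 4.59% of all tested probe sets were lower without overlap.

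**Figure D1:**
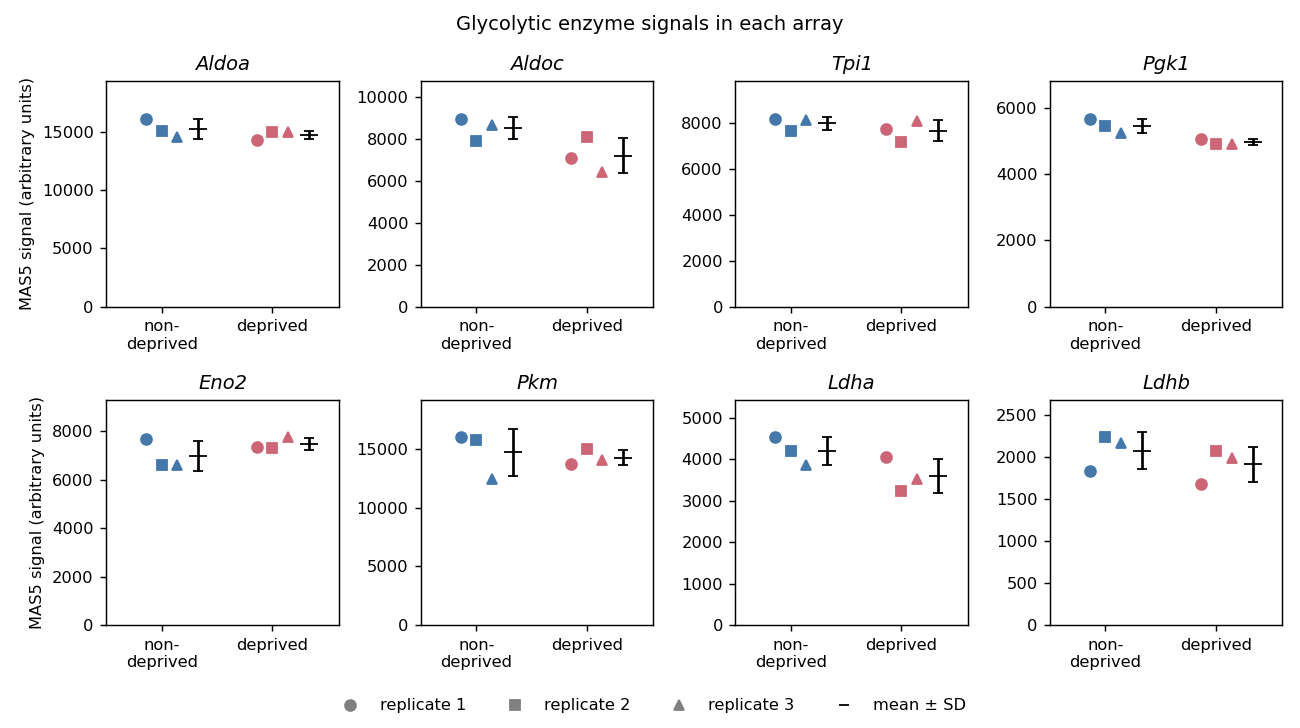
MAS5 signal (arbitrary units, linear axes from 0) of the brightest probe set of each of the 8 glycolytic enzymes, for 3 non-deprived (blue) and 3 deprived (red) arrays; the black bar is the mean ± SD of a group. The points of the 2 groups interleave in every panel but that of Pgk1, whose deprived arrays lie at 4897 to 5065 and non-deprived arrays at 5225 to 5669.

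Because signals of different probe sets depend on their probes, levels are compared between groups for a gene and never between genes. The signals below are linear MAS5 units, and every log2 difference is on the scale of log2(signal + 16), which for signals this high differs little from the plain log2. Intervals are 95% intervals from the limma fit and are not widened for the number of probe sets tested.

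Aldolase splits fructose 1,6-bisphosphate into triose phosphates. Aldoa, the aldolase of muscle that is also abundant in brain, read 16135, 15072 and 14524 in non-deprived replicates 1, 2 and 3 and 14298, 14946 and 14943 in deprived replicates 1, 2 and 3. Of the deprived arrays 1 lay just below the non-deprived range and 2 within it, and the log2 difference was -0.05 (SE 0.07, interval -0.20 to 0.10). On this probe set an Aldoa fall of more than 1.15-fold or a rise of more than 1.07-fold lay outside the interval. A second Aldoa probe set read 5864 ± 810 (SD, n = 3) in non-deprived and 6007 ± 1243 in deprived arrays, a log2 difference of 0.02 (SE 0.15). Both Aldoa probe sets carry the _f suffix of the platform, given to probe sets that can share probes with related transcripts, and their values are uncertain in that respect.

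Aldoc had the lowest difference of the 8. It read 8976, 7920 and 8692 in non-deprived replicates 1 to 3 and 7102, 8098 and 6433 in deprived replicates 1 to 3. Deprived replicates 1 and 3 lay below every non-deprived array, while deprived replicate 2 lay above non-deprived replicate 2. The means were 8530 ± 546 and 7211 ± 838 (SD, n = 3 each), a log2 difference of -0.25 (SE 0.10, interval -0.46 to -0.03, limma unadjusted p = 0.029, adjusted p = 0.95). The difference was -0.17 without deprived replicate 3 and -0.33 without deprived replicate 2, with adjusted p-values from 0.68 to 1.00 over all 14 alternative analyses.

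The astrocyte markers had a median on the other side of zero from Aldoc. Of 8 tested markers (Aldoc not among them), 3 had a lower and 5 a higher deprived mean, with a median log2 difference of 0.07. The genes with the smallest p were Apoe (0.09, SE 0.09), Slc1a2 (0.29, SE 0.31) and Aqp4 (0.11, SE 0.12). Without non-deprived replicate 3 the markers split into 4 lower and 4 higher, with a median of 0.03. Their summed signal ran from 29082 to 32054 in non-deprived and from 28820 to 33668 in deprived arrays, and none of the tested markers was at 0. In bulk tissue such as this, fewer cells of a type cannot be told apart from less RNA per cell.

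Tpi1, triosephosphate isomerase, converts one triose phosphate into the other. It read 8176, 7644 and 8100 in non-deprived replicates 1 to 3 and 7707, 7164 and 8063 in deprived replicates 1 to 3. The groups overlapped, with a log2 difference of -0.06 (SE 0.08, interval -0.23 to 0.11). Leaving out 1 array gave -0.10 (without deprived replicate 3) to -0.02 (without deprived replicate 2).

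Pgk1, phosphoglycerate kinase, makes the first ATP of the pathway. It read 5669, 5444 and 5225 in non-deprived replicates 1 to 3 and 5065, 4904 and 4897 in deprived replicates 1 to 3. All 3 deprived arrays lay below all 3 non-deprived arrays, the only member of the 8 with this order. The means were 5446 ± 222 and 4955 ± 94.8 (SD, n = 3 each), and the log2 difference was -0.14 (SE 0.07, interval -0.30 to 0.03, limma adjusted p = 0.97). Leaving out any one array gave -0.16 to -0.11.

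Enolase makes phosphoenolpyruvate. Eno2 read 7701, 6632 and 6626 in non-deprived replicates 1 to 3 and 7345, 7308 and 7768 in deprived replicates 1 to 3. Non-deprived replicate 1 stood with the deprived arrays, and the other two non-deprived arrays lay below all of them. The means were 6986 ± 619 and 7474 ± 255 (SD, n = 3 each), with a log2 difference of 0.10 (SE 0.08, interval -0.08 to 0.29). Without non-deprived replicate 1 it was 0.17 (limma adjusted p = 0.66), and Eno2 was then the only member with an unadjusted p under 0.05. In the main fit 2.67% of all tested probe sets were higher by that rule, a share not counted with this array left out. The muscle enolase Eno3, which was not among the 10, read 524 ± 51.5 and 457 ± 28.4 (log2 difference -0.19, SE 0.15).

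Pkm, pyruvate kinase, makes pyruvate and the second ATP. It read 16054, 15768 and 12463 in non-deprived replicates 1 to 3 and 13749, 15008 and 14124 in deprived replicates 1 to 3. All deprived values lay within the span of the non-deprived ones, whose lowest array was replicate 3, and the log2 difference was -0.04 (SE 0.10, interval -0.26 to 0.18). The sign of the Pkm difference turned with the arrays used, from -0.16 without non-deprived replicate 3 to 0.03 without non-deprived replicate 1, and quantile normalization gave 0.02. The Pkm probe set behind these values carries the _s suffix, which also marks probes that can match other transcripts. A second, _f probe set read 7104 ± 233 and 6560 ± 1173 (log2 difference -0.13, SE 0.12), its lowest value being 5206 in deprived replicate 2. The annotation gives 1 symbol for both Pkm splice forms, so the M1 and M2 enzymes were not separated.

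Ldha and Ldhb encode the muscle-type and heart-type subunits of lactate dehydrogenase, which combine into tetramers. Ldha read 4540, 4211 and 3865 in non-deprived replicates 1 to 3 and 4052, 3243 and 3527 in deprived replicates 1 to 3. Deprived replicates 2 and 3 lay below every non-deprived array and deprived replicate 1 lay among them. The means were 4205 ± 337 and 3607 ± 411 (SD, n = 3 each), a log2 difference of -0.22 (SE 0.10, interval -0.46 to 0.01, limma unadjusted p = 0.060, adjusted p = 0.96).

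Ldhb read 1831, 2239 and 2168 in non-deprived replicates 1 to 3 and 1681, 2072 and 1987 in deprived replicates 1 to 3. The groups overlapped, with a log2 difference of -0.12 (SE 0.12, interval -0.39 to 0.15). It was -0.03 without deprived replicate 1 and -0.21 without non-deprived replicate 1, the ends of the range with 1 array left out. A dim second Ldhb probe set, with a mean signal of 34.6, was under the lowest mean signal tested (134.7) and gives no usable level.

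The balance between isozymes was compared within arrays, as the difference of 2 log2 signals; these comparisons were chosen after the values were seen. The Ldha to Ldhb log2 ratio was lower in deprived arrays by -0.10, with SDs of 0.25 (non-deprived) and 0.32 (deprived) over 3 arrays each (two-sided exact permutation test, p = 0.5, adjusted over the 2 pairs 0.5). The Aldoa to Aldoc log2 ratio was higher by 0.20, with SDs of 0.09 and 0.17 (two-sided exact permutation test, p = 0.2, adjusted 0.4). With 3 arrays a side, this test cannot give a p below 0.1.

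**Figure D2:**
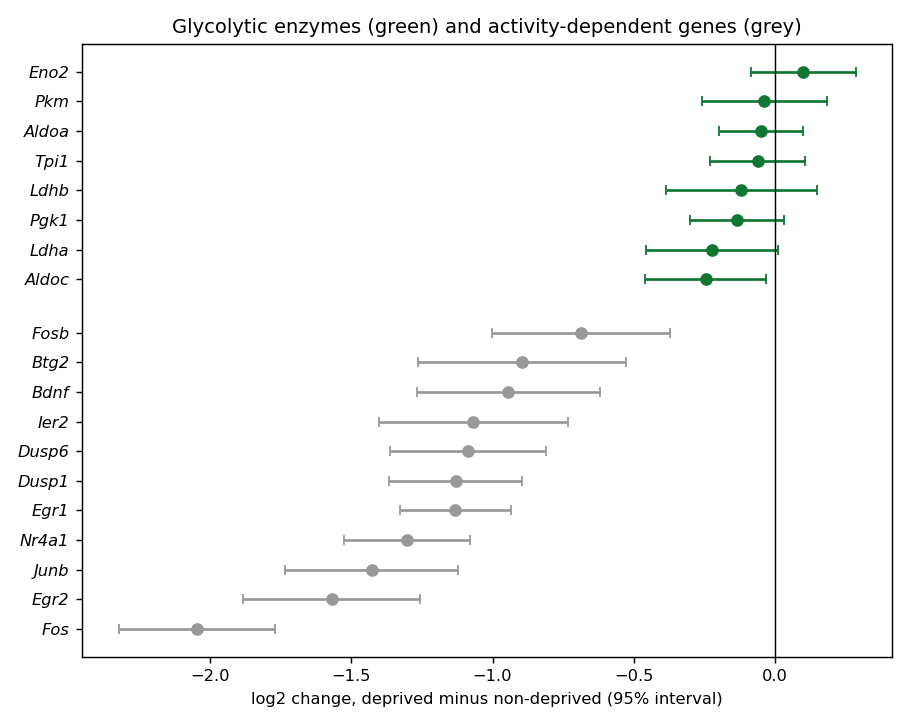
Log2 change (deprived minus non-deprived, horizontal axis) of the 8 glycolytic enzymes (green) and of 11 tested activity-dependent genes (grey), with 95% limma intervals. The green points lie between -0.25 and 0.10 and the grey points between -2.05 and -0.69. Both lists were chosen with earlier results of these data known.

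In the main fit the members had smaller standard errors than most probe sets. These errors were 0.07 to 0.12 on the log2 scale, against a median of 0.18 over all tested probe sets. They rest in part on a trend of variance with mean intensity, and the members are bright. Without that trend the members' standard errors were 0.11 (Pgk1) to 0.14 (Ldhb). The intervals of the main fit left out falls larger than 1.38-fold for Aldoc, 1.37-fold for Ldha, 1.31-fold for Ldhb and 1.23-fold for Pgk1, and rises larger than 1.22-fold for Eno2. On the same arrays 9 of 11 activity-dependent genes (immediate-early and related genes that neurons switch on with activity) fell past the threshold, with a median log2 change of -1.13 over the 11 (0.161% of all tested probe sets fell). These were Fos, an immediate-early transcription factor subunit (2946 ± 236 to 703 ± 87.7, SD, n = 3 each; log2 change -2.05, limma adjusted p = 0.00014), Egr2, Junb, Nr4a1, Egr1, Dusp1, Dusp6, Ier2 and Bdnf. This list was chosen with earlier results of these data known, and only 12 probe sets of the whole table fell past the threshold. The count is therefore a description and no independent check.

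All 8 members were bright, with mean signals from 1996 (Ldhb) upward. Over the 852 tested probe sets at least as bright as the Ldhb one, the median log2 difference was -0.01 and 55.6% had a lower deprived mean, against 47.8% of all tested probe sets. The mean log2 signal over the 8 members was 12.70 to 12.81 in non-deprived arrays and 12.64 to 12.67 in deprived arrays, so this mean did not overlap. The summed signal did, at 61664 to 69082 against 61000 to 62743. Such a mean also lay apart for other lists. For the list of hypoxia-inducible genes and hypoxia regulators described below it was higher in deprived arrays, at 9.44 to 9.57 (non-deprived) against 9.59 to 9.68 (deprived). For the activity-dependent genes it was lower, at 11.02 to 11.08 (non-deprived) against 9.76 to 9.89 (deprived). No test was made of these summary values, since the members were chosen with earlier results known.

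Single arrays weighed on the direction shared by the members. Non-deprived replicate 1 held the highest signal of 6 of the 8 (all but Eno2 and Ldhb), and its median deviation from each gene's own mean was 0.12 on the log2 scale. The lowest signals were spread over deprived replicates 1, 2 and 3 and non-deprived replicate 3, with 2 members each. Without non-deprived replicate 1 the members' median was -0.07, with 6 lower and 2 higher. Without deprived replicate 1 it was -0.05, and without non-deprived replicate 3 it was -0.12.

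Non-deprived replicate 3 stood apart in a control for 18S ribosomal RNA, whose 3′ probe set read 2689 there and 661 to 981 in the other arrays. Without it the log2 differences were -0.23 for Aldoc, -0.28 for Ldha, -0.16 for Pgk1, -0.16 for Pkm, -0.09 for Ldhb, -0.08 for Aldoa, -0.05 for Tpi1 and 0.06 for Eno2. None of the 8 members passed in that fit (limma adjusted p = 0.99985 for each), and 1 (Ldha, no longer Aldoc) was lower at an unadjusted p under 0.05. In the main fit 2.42% of all tested probe sets were lower by that rule, a share not counted with this array left out. No member passed when any other array was left out.

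**Figure D3:**
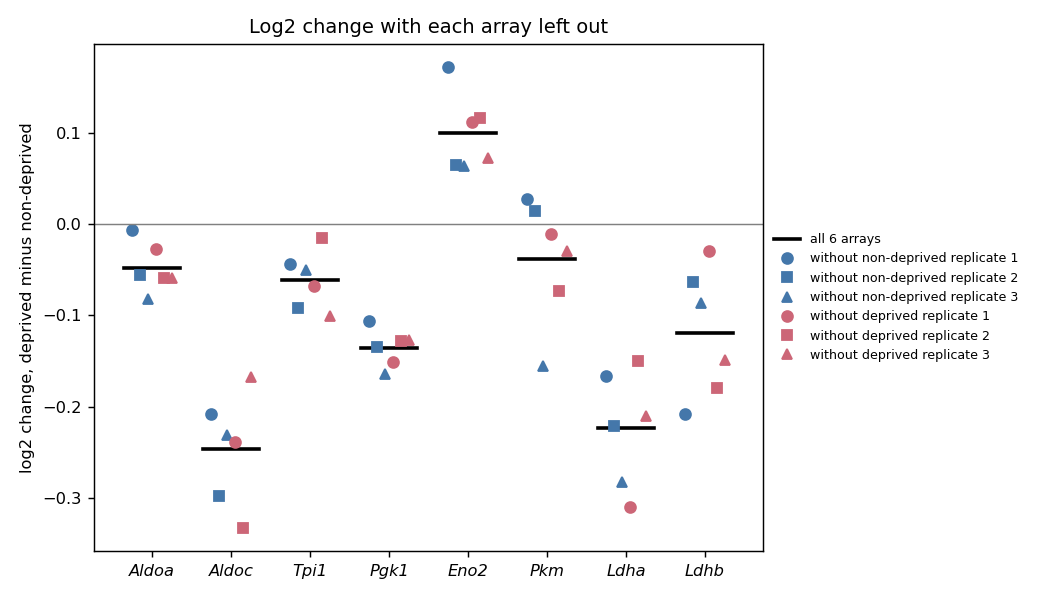
Log2 change (deprived minus non-deprived, vertical axis) of each of the 8 glycolytic enzymes with all 6 arrays (black bar) and with each array left out in turn (blue, a non-deprived array; red, a deprived array; shape, its replicate number). The other genes keep one sign throughout, while Pkm lies between -0.16 and 0.03.

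The rest of the pathway was read from lists of related genes. Of 19 other glycolysis genes, 10 had a tested probe set and 0 passed, with 5 lower and 5 higher means and a median log2 difference of -0.02. The lower means included those of a pair of control points of the pathway. Pfkp, the platelet-type subunit of phosphofructokinase, read 915 ± 51.5 and 811 ± 41.8 (log2 difference -0.17, SE 0.12), and Pfkfb3, which makes its activator fructose 2,6-bisphosphate, read 325 ± 27.4 and 265 ± 36.5 (-0.28, SE 0.19). The groups did not overlap for either gene, as for 4.59% of all tested probe sets in that direction. The log2 difference was -0.07 (SE 0.09) for Pfkl and 0.04 (SE 0.09) for Pfkm, which encode the liver-type and muscle-type subunits.

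Hexokinase 1 (Hk1), which commits glucose to the cell, had 0.04 (SE 0.12), and Pgam1, a phosphoglycerate mutase, 0.09 (SE 0.14). Bpgm, Minpp1 and Galm had 0.09 (SE 0.22), 0.08 (SE 0.13) and -0.30 (SE 0.17). Gapdh, the enzyme between Tpi1 and Pgk1, was read only from the array's control probe sets, which stood outside the fit. Their log2 differences were -0.04 (3′), -0.05 (middle) and -0.05 (5′), with the 3′ one at 29855 ± 1802 and 29110 ± 2800 (SD, n = 3 each). With 1 array left out, the median of the 10 other glycolysis genes was -0.10 without deprived replicate 3, -0.08 without deprived replicate 2 or non-deprived replicate 3, and -0.04 to -0.02 for each of the remaining arrays.

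**Figure D4:**
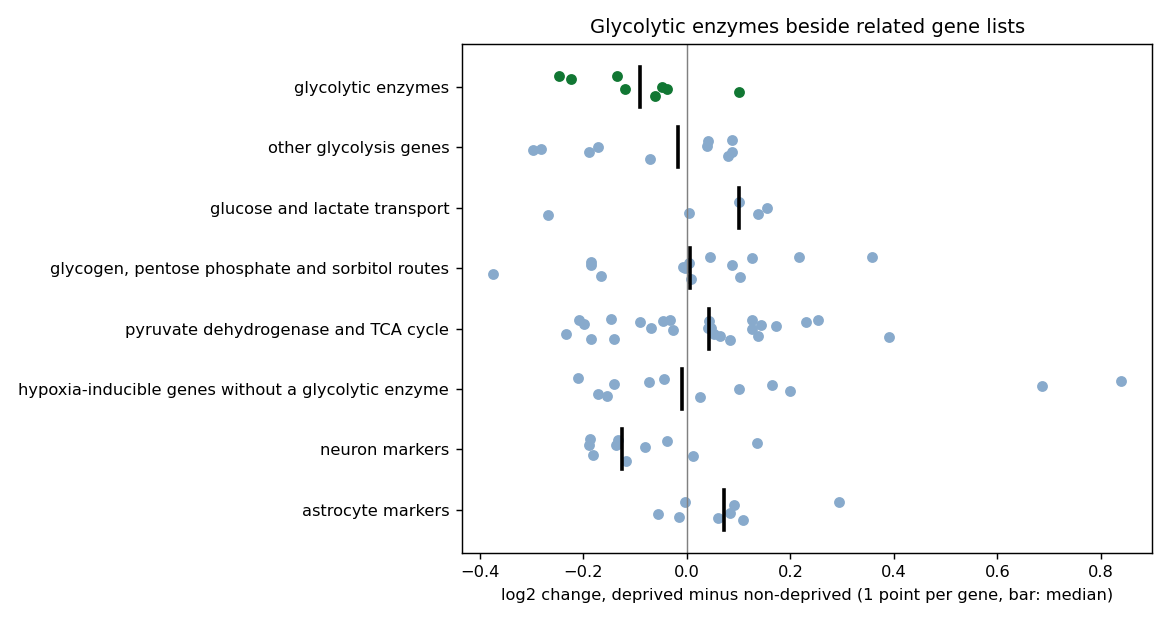
Log2 change (deprived minus non-deprived, horizontal axis) of every tested gene in 8 lists, 1 point per gene (vertical scatter within a list has no meaning), with the median of each list as a black bar. The glycolytic enzymes (green) have a median of -0.09, between those of the neuron markers (-0.12) and the other glycolysis genes (-0.02).

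The list of glucose and lactate transport genes gave 5 tested members, 1 lower and 4 higher, median 0.10, none past the threshold. One of them, Ndrg2 (0.16, SE 0.12), is not a transporter. Without it 1 was lower and 3 were higher, median 0.05, and these still include a partner protein of lactate transporters that is itself no transporter. Without non-deprived replicate 3 the median of all 5 was 0.00, with 2 lower and 3 higher. Slc2a1, the glucose transporter of vessel walls and glia, read 453 ± 42.7 and 379 ± 93.5 (log2 difference -0.27, SE 0.19). Slc2a3, the neuronal glucose transporter, read 898 ± 38.7 and 990 ± 57.2 (0.14, SE 0.11), and its groups did not overlap (5.5% of all tested probe sets were higher without overlap). The lactate transporters Slc16a1 and Slc16a7 were under the signal tested.

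Side routes and the next steps of glucose metabolism showed no call either. Of 14 tested genes of glycogen, pentose phosphate and glycerol phosphate routes, 6 were lower and 8 higher (median 0.01, or -0.03 without deprived replicate 1). The sorbitol route, also in the name of this list, had no gene measured. Among the 14 tested genes Pgm1, a phosphoglucomutase that links glycogen to glycolysis, read 1725 ± 132 and 1347 ± 307 (log2 difference -0.37, SE 0.15, limma adjusted p = 0.95). Pgd had 0.36 (SE 0.20) and Pygb 0.22 (SE 0.15). Of 25 tested genes of pyruvate dehydrogenase and the TCA cycle, 11 were lower and 14 higher (median 0.04, or -0.01 without deprived replicate 3). The genes with the smallest p there were Idh2 (0.39, SE 0.20), Idh3g (0.23, SE 0.13) and Sdhb (-0.14, SE 0.09).

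A hypoxia list without glycolytic enzymes mixed hypoxia-inducible genes with regulators of the hypoxia response, so it does not read induced genes alone. It had 12 tested members, 6 lower and 6 higher, with a median of -0.01 (-0.08 to 0.06 with 1 array left out) and none past the threshold. Ddit4, a stress-induced inhibitor of mTOR signalling, read 453, 385 and 313 in non-deprived replicates 1 to 3 and 543, 657 and 672 in deprived replicates 1 to 3 (log2 difference 0.69, SE 0.17, limma adjusted p = 0.50). The groups did not overlap, as for 5.5% of all tested probe sets in that direction. Ddit4 is also a glucocorticoid-responsive gene, and the cause of its difference was not tested. Vhl, one of the regulators, had 0.84 (SE 0.52) at a mean signal near the lowest tested, and Egln1, an oxygen-sensing prolyl hydroxylase, -0.17 (SE 0.11).

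Most neuron markers, like most of the glycolytic enzymes, had a lower mean in deprived arrays. Of 10 tested markers, 8 were lower and 2 higher, with a median of -0.12, and 0 passed the threshold. The median was -0.05 without deprived replicate 1 and also without deprived replicate 3. The lowest p belonged to Tubb3, a neuronal tubulin, which read 7738 ± 242 and 6826 ± 232 (SD, n = 3 each; log2 difference -0.18, SE 0.07, adjusted p = 0.95) without overlap on an _f probe set. Nefl had -0.19 (SE 0.12), also without overlap, and Gad1 -0.13 (SE 0.09). Of all tested probe sets, 4.59% were lower without overlap. The summed neuron marker signal ran from 52457 to 54754 in non-deprived and from 49523 to 52024 in deprived arrays, and no tested marker was at 0. The mean log2 signal over the 10 markers did overlap, at 11.14 to 11.22 in non-deprived and 11.02 to 11.24 in deprived arrays. The part of neuron marker signal in the glycolytic differences was not tested.

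Markers of other cells gave medians that turned on single arrays, and none passed the threshold. Sox10, Ctss and Cldn5 were higher in deprived arrays without overlap, as were 5.5% of all tested probe sets. Of 6 oligodendrocyte genes 2 were lower and 4 higher, with a median log2 difference of 0.10 that was 0.03 without non-deprived replicate 3 or without deprived replicate 2 (Sox10 0.24, SE 0.11; Cldn11 0.21, SE 0.16; Mog -0.24, SE 0.22). Of 8 microglia genes 1 was lower and 7 higher, median 0.06, and -0.02 with 4 lower and 4 higher without non-deprived replicate 3 (Ctss 0.16, SE 0.10; Cx3cr1 -0.29, SE 0.20; Laptm5 0.15, SE 0.18). Of 5 endothelial and vessel-wall genes 3 were lower and 2 higher, median -0.16, which ran from -0.35 without deprived replicate 3 to -0.02 without deprived replicate 2 (Cldn5 0.40, SE 0.19; Tagln -0.42, SE 0.29; Flt1 -0.16, SE 0.21). All 3 red blood cell genes were lower, median -0.08, but the median was 0.04 when non-deprived replicate 3 was left out, and 0.02 when deprived replicate 2 was (Slc4a1 -0.29, SE 0.49; Hbb-b2 -0.08, SE 0.15; Hba-a1 -0.05, SE 0.16).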

How the data were processed

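The deposited file holds 12488 probe sets on 6 arrays as linear signal intensity that the authors computed with MAS5, per the submitters' processing notes. MAS5 summarises perfect-match and mismatch probes into an arbitrary brightness. The deposited intensity columns had 2% trimmed means of 499.9 to 500.3 and medians of 202.8 to 219.7, so the arrays already stood at a common level, which hides any change in total mRNA. Detection calls were not used here, and the number of arrays limits the precision.

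The 66 control probe sets were set aside, and the top 60% by mean signal over all arrays (7453, at least 134.7) were tested on log2(signal + 16) with limma 3.58.1 in R 4.3.3 (lmFit; eBayes, trend on mean intensity). The model held group alone and tests were two-sided. Benjamini-Hochberg adjustment covered all 7453, with a threshold of 0.05. The fit was also run on simulated data with independent noise between arrays, which cannot address shared animals or pools. Symbols came from the platform annotation, checked through Entrez IDs against RefSeq (GRCm38.p6): 10855 probe sets had 1 symbol, and 396 with several stayed unnamed. Members and lists were chosen with earlier results of these data known. Of each related list, the 3 genes with the smallest p and any past the threshold are named, and of other glycolysis genes any that was tested. Alternatives were pseudocounts of 1 and 64, quantile normalization, no filter, the top 40%, the replicate number as a block, no intensity trend, averaging the probe sets of a gene, and leaving out each array. Array-by-array omission for the list medians, and the transport list without Ndrg2, were chosen after seeing the data.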

Additional observations from a re-analysis of the deposited data

How the results depend on the processing

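The count of glycolytic enzymes past the threshold was 0 under all 14 alternatives, with a smallest adjusted p of 0.66 (Eno2, without non-deprived replicate 1). The number lower at an unadjusted limma p under 0.05, 1 in the main fit, was less steady. It was 0 without the intensity trend, without deprived replicate 3 or without non-deprived replicate 1, and 2 with the replicate block. Where it was 1, the member was Aldoc in the main fit but Ldha without deprived replicate 1 or without non-deprived replicate 3. The share of all tested probe sets at that p was counted in the main fit only. The members' median log2 difference kept its sign, from -0.12 to -0.05 over the alternatives. Of the single members, only Pkm changed sign across the alternatives: it was 0.020 for Pkm under quantile normalization, and leaving out 1 array gave Pkm from -0.16 to 0.027, never past the threshold; the cause was not tested. It was above zero when the array left out was non-deprived replicate 1 (0.027) or 2 (0.014). Ldhb moved from -0.12 to -0.37 when its dim second probe set was averaged in. The number of probe sets past the threshold in the whole table was 13, and 7 to 10 with 1 array left out (7 when the omitted array was non-deprived replicate 2, and 8 for the third array of either group); with fewer arrays the test had less to go on. The replicate number as a block gave 10 probe sets and 0 members past the threshold; same-numbered arrays deviated together at correlations of 0.00, 0.05 and -0.02, so the numbers were not taken to pair the arrays, and not every array correlated best with its own number. MAS5 signals without detection calls leave dim members, such as the second Ldhb probe set, without a usable level.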
